A study of Mus musculus with 10 samples.

Results

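Immediate early genes are switched on within minutes of a stimulus, without new protein being made first, and most of their mRNAs are short-lived. Calcium entry, cAMP and growth factor signals reach them through CREB and serum response factor, and in β cells glucose and membrane depolarization are known to raise several of them. Their products are mainly transcription factors: the FOS and JUN proteins pair to form AP-1, EGR1 and EGR2 are zinc-finger proteins, NR4A1 is an orphan nuclear receptor, and NPAS4 is a factor set by neuronal and β cell activity. DUSP1 is a phosphatase that switches off MAP kinases, and IER2 is a small nuclear protein. The 10 genes described here, Fos, Fosb, Jun, Junb, Egr1, Egr2, Nr4a1, Npas4, Ier2 and Dusp1, were taken by symbol from a table of 47340 genes, and each matched 1 entry.

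The values came from poly(A) RNA sequencing of islets from 5 floxed control (FL) and 5 β cell FIT2 knockout (βFIT2KO, KO) samples of 12-wk-old mice. Fitm2 encodes FIT2, a protein of the endoplasmic reticulum with a part in forming lipid droplets. FL carried the floxed alleles of Fitm2 without Cre. KO carried them with Cre under the rat insulin promoter, from B6.Cg-Tg(Ins2-cre)25Mgn/J mice. The groups therefore differ in the transgene as well as in Fitm2, no library of Cre alone was analysed here, and male mice were used throughout the study. The genotype entry of the FL samples reads wild type while their titles say floxed. Islets of both groups were kept overnight in complete CMRL medium before lysis, so every level below is that of islets after isolation and a night in culture with no further stimulus named. The animals were fed chow, and the study counts 5 mice per group, so p-values measure the spread between mice, with 1 library each.

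Fitm2 stood at 16.9, 30.5, 16.5, 37.1 and 15.5 FPKM in FL and at 4.56, 4.30, 7.75, 9.13 and 8.998 FPKM in KO, with no overlap (limma, adjusted p = 0.00228). β cell identity markers were read in the same table: all 7 that passed the filter had a lower mean in KO and 6 of them were called lower, and Ins1, Ins2, Iapp and the α cell hormone Gcg were listed at 0 in every library. The α, δ and PP cell markers other than Gcg all passed the filter, with Sst, the δ cell hormone gene, at 4624 to 5467 FPKM in FL against 3701 to 5004 in KO and Ppy, the PP cell hormone gene, at 2811 to 16923 against 8815 to 12871. Of these 8 markers, 0 were called higher and 2 lower, beside 9.05% and 16.5% of all genes, with a median log2 difference of -0.22, and after rescaling by median ratio or quantile normalization none was called. The spacing of low values placed the libraries at the equivalent of 23550000 to 56705000 reads. In the 13065 genes whose mean reached 1 FPKM in either group, limma called 1183 higher and 2150 lower in KO, a split that became 1547 and 1685 after rescaling by median ratio. In bulk islet RNA, fewer cells of a type and less RNA per cell cannot be told apart. By other methods, the paper reported no discernible difference between the genotypes in islet composition or insulin content.

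In mouse GRCm38 coordinates (GENCODE M21), Jun occupies chr4:95049034-95052222 on the minus strand, Junb chr8:84974484-84978718 (minus), Ier2 chr8:84661331-84662852 (minus), Fos chr12:85473890-85477273 (plus), Fosb chr7:19302696-19310051 (minus), Egr2 chr10:67535475-67542188 (plus), Nr4a1 chr15:101254269-101274795 (plus), Dusp1 chr17:26505590-26562128 (minus) and Npas4 chr19:4984355-4990316 (minus). The 250 bases before the RefSeq start are shown for 4 of them, from RefSeq on GRCm38.p6, 5′ to 3′ along the gene: Jun, the member that passed the test, Junb, which followed it most closely between libraries, Fos, their partner in AP-1, and Nr4a1, the member with a lower mean in KO. Capitals mark TGACG (the core of the cAMP response element, CRE), the EGR site GCGNGGGCG and TATAAA on either strand, and in Jun the run TGACATCA, which was added after the sequences were seen and is known as the AP-1-like element of this promoter.
Jun (chr4:95052223-95052472, minus): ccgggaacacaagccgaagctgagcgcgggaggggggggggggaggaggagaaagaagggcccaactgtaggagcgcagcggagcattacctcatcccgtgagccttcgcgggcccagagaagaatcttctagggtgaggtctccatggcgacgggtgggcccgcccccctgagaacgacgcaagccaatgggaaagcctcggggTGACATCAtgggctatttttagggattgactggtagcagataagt
Junb (chr8:84978749-84978998, minus): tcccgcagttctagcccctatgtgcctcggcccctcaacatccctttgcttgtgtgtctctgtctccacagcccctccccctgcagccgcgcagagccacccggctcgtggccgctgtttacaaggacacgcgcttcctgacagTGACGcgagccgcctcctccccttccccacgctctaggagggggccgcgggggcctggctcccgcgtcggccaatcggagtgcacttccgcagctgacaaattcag
Fos (chr12:85473640-85473889, plus): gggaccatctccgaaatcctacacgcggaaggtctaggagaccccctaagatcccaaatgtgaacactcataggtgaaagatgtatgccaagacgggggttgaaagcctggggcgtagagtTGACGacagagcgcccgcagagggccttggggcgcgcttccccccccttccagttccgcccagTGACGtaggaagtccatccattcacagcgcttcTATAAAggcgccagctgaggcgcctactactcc
Nr4a1 (chr15:101266596-101266845, plus): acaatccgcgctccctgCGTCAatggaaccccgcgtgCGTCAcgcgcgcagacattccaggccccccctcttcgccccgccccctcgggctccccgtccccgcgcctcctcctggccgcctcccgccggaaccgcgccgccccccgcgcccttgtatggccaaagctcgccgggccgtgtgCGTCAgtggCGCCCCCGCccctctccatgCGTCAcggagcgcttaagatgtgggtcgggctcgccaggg
Promoter windows of 8 of the 10 members were searched. Those of Egr1 and Ier2 were not, so nothing is said of their letters. TGACG or its reverse complement occurred in 7 of these 8 members, in all but Jun, against 17.8% of all 32851 windows of the same length. The 4 matches in Nr4a1 all read CGTCA, and the Fos matches began 129 and 66 bases before the start. The full CRE, TGACGTCA, was found in Dusp1 alone (1.55% of all windows), where it contains 2 of the TGACG matches. Among the 8 members searched, a CArG box, the letters bound by serum response factor, was found in windows of Egr2 alone (1.47% of all). GCGNGGGCG was found in Fosb and Nr4a1 (4.70% of all). Only the 250 bases before a start were searched, so letters farther away were not seen. No window of a member held the AP-1 letters TGACTCA or TGAGTCA (4.46% of all). TATAAA was found in Fos (12.4% of all) and TGACATCA in Jun (2.93% of all). Egr2 has 5 annotated starts whose windows partly overlap, so its matches recur. A match is a run of letters, and no binding was measured.

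Jun was the member that differed between the groups. Its product is the central JUN subunit of AP-1 and the target of JNK. Jun stood at 18.5, 16.7, 18.2, 17.5 and 18.3 FPKM in the 5 FL libraries and at 25.7, 25.9, 23.4, 24.95 and 28.8 FPKM in the 5 KO libraries. Every KO library lay above every FL library, by a wide margin against the spread within either group. The mean rose by 44.4%, from 17.8 ± 0.731 to 25.7 ± 1.98 FPKM (SD, n = 5 per group). On the log2(FPKM + 1) scale used for every fold change, the difference was 0.50 ± 0.06 (SE), or 1.42-fold with a 95% interval of 1.30 to 1.55 (limma, adjusted p = 0.000115; exact two-sided permutation p = 0.00794, the smallest that 5 against 5 allows). The call held in all 24 refits, with each library left out in turn and without KO library 5 (0.46, adjusted p = 0.000166), and was lost only by also asking for 1.5-fold. About 1301 to 4169 reads lay behind each value, so counting error was 1.80% to 2.32% against 4.10% (FL) and 7.69% (KO) between libraries. Jun overlaps the antisense gene Junos, which averaged 1.91 FPKM in FL against 2.60 in KO. The libraries were strand-specific, but whether the counting used strand is not given in the sources used here.

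**Figure D1:**
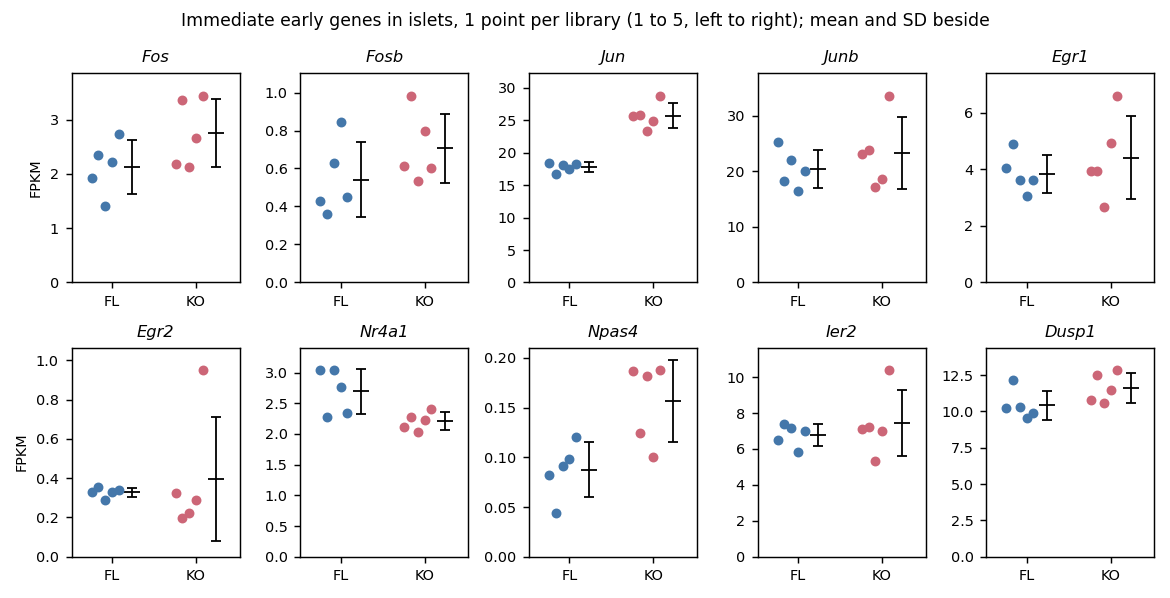
FPKM of the 10 immediate early genes (y axis from 0, a scale of its own for each gene) in the 5 FL (blue) and 5 KO (red) islet libraries. Each point is a library, in the order 1 to 5 from left to right, and the bar beside it is the mean with the SD. Jun separates the groups with 16.7 to 18.5 FPKM in FL and 23.4 to 28.8 in KO. Egr2, Egr1, Ier2 and Junb have their highest value in KO library 5.

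Of the 7 members that passed the filter, Jun was the 1 called (14.3%), against 25.5% of all genes called in either direction and 9.05% called higher. It was also the 1 member without overlap, where 19.1% of all tested genes did not overlap and 6.67% had every KO library above every FL library. The share of members called was thus not above the background. The median difference of the 7 was 0.14 on the log2 scale, beside -0.06 for all genes tested. Fosb, Egr2 and Npas4 averaged under 1 FPKM in both groups and stayed out of the fit. Means of 9 of the 10 members were higher in KO and that of Nr4a1 was lower. Before adjustment, 2 of the 7 had a p under 0.05, beside 37.7% of all genes tested.

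**Figure D2:**
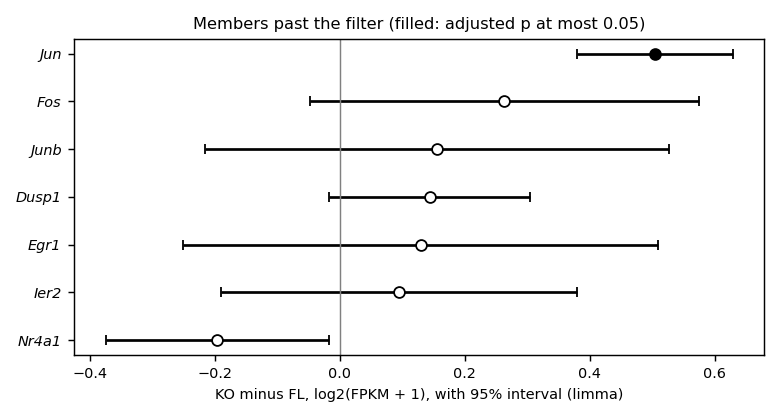
Difference between KO and FL in log2(FPKM + 1) for the 7 members past the filter (x axis), with the 95% interval from limma. The filled point is the member with an adjusted p of at most 0.05, and the line marks 0. Jun lies at 0.50 with an interval clear of 0, Nr4a1 lies below 0 at -0.20, and the intervals of Fos, Junb, Dusp1, Egr1 and Ier2 include 0.

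Junb, the other JUN subunit measured among the members and often an antagonist of JUN, did not pass the test. It stood at 25.3, 18.3, 22.02, 16.5 and 19.996 FPKM in FL and at 23.1, 23.9, 17.1, 18.6 and 33.6 FPKM in KO. The groups overlapped over most of their range, and KO library 5 lay above all others. The difference was 0.15 on the log2 scale, with a 95% interval of -0.22 to 0.53 (limma, adjusted p = 0.538), and 0.02 without KO library 5 (adjusted p = 0.944, in a range of 0.245 to 0.944 over its alternatives). In GENCODE M21, where the entry of Junb is a later version than the deposited one, Junb overlaps Prdx2 on the other strand. Prdx2 averaged 226 FPKM in FL against 221 in KO. In FL, Junb (20.4 ± 3.42 FPKM) and Jun (17.8 ± 0.731 FPKM) were the most abundant members and their values overlapped. In KO, Jun came first at 25.7 ± 1.98 FPKM, again overlapping Junb at 23.3 ± 6.48 FPKM (SD, n = 5).

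The FOS partners were far less abundant. Fos, the founding AP-1 member, stood at 1.93, 2.35, 1.40, 2.21 and 2.74 FPKM in FL and at 2.19, 3.36, 2.12, 2.66 and 3.44 FPKM in KO. KO libraries 2 and 5 lay above the FL range and the other 3 lay within it. The mean was 29.5% higher in KO, with a log2 difference of 0.26 and an interval of -0.05 to 0.57 (limma, adjusted p = 0.199). Fosb, which encodes FOSB and by splicing the stable ΔFOSB, stood at 0.429, 0.359, 0.630, 0.843 and 0.450 FPKM in FL and at 0.614, 0.983, 0.537, 0.797 and 0.600 FPKM in KO. Its groups overlapped, and a two-sided exact permutation test gave p = 0.198. The interval of Fos reached 1.49-fold, above the 1.42-fold of Jun.

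The EGR genes gave no call, and 1 library decided their direction. Egr1, a sensor of calcium and ERK signals, stood at 4.05, 4.88, 3.61, 3.06 and 3.62 FPKM in FL and at 3.93, 3.92, 2.67, 4.92 and 6.60 FPKM in KO. KO library 3 was the lowest and KO library 5 the highest of all 10. The log2 difference of 0.13, with an interval of -0.25 to 0.51 (limma, adjusted p = 0.624), became -0.004 without KO library 5. Egr2 stood at 0.331, 0.353, 0.291, 0.330 and 0.339 FPKM in FL, a narrow range, and at 0.324, 0.196, 0.221, 0.286 and 0.951 FPKM in KO. KO library 5 had about 127 reads for it where the other 9 libraries had 22 to 53. From these approximate reads, counting error alone gives a CV of 17.8% in FL, above the 6.98% between FL libraries. In KO it gives 17.7%, against 79.5% between libraries. With all libraries an exact two-sided permutation test gave p = 0.992. Without KO library 5, 3 of the 4 remaining KO libraries lay below every FL library and the difference turned to -0.08 on the log2 scale (exact permutation p = 0.0238, in a range of 0.0238 to 1 over its alternatives).

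Nr4a1 was the member with the lower mean. Its product is an orphan receptor that is induced by cAMP and calcium. Nr4a1 stood at 3.04, 2.28, 3.04, 2.76 and 2.34 FPKM in FL and at 2.12, 2.28, 2.03, 2.23 and 2.41 FPKM in KO. FL libraries 1, 3 and 4 lay above every KO library, while FL libraries 2 and 5 lay among them. The log2 difference was -0.20, with an interval of -0.37 to -0.02, and did not pass the adjusted threshold (limma, adjusted p = 0.101; exact two-sided permutation p = 0.0397). Its sign was negative in all refits that held it, with adjusted p between 0.0607 and 0.212.

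Npas4 was the scarcest member. It stood at 0.0827, 0.0445, 0.0912, 0.0979 and 0.120 FPKM in FL and at 0.187, 0.124, 0.182, 0.1002 and 0.188 FPKM in KO. KO libraries 1, 2, 3 and 5 lay above every FL library and KO library 4 lay within the FL range. These values rest on 5 to 21 reads in FL and 12 to 28 reads in KO, for which counting error alone gives a CV of 34.8% and 23.4%, beside 31.7% and 26.3% between libraries. Mean FPKM was 0.0873 ± 0.0277 in FL and 0.156 ± 0.0411 in KO (SD, n = 5; exact two-sided permutation p = 0.0159, over 10 members tested). In the limma fit of log2(FPKM + 1) with no filter, the difference was 0.09 with an interval of 0.03 to 0.15 (adjusted p = 0.0670). With no filter and a pseudocount of 0.01, added after the data were seen, it was 0.79 with an interval of -0.01 to 1.58 (adjusted p = 0.207).

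Neither Ier2 nor Dusp1 passed the test. Ier2 stood at 6.501, 7.38, 7.14, 5.85 and 7.02 FPKM in FL and at 7.14, 7.25, 5.36, 7.02 and 10.4 FPKM in KO. KO library 5 lay at the top, KO library 3 at the bottom, and the other 8 libraries between 5.85 and 7.38 FPKM. The difference of 0.09, with an interval of -0.19 to 0.38 (limma, adjusted p = 0.632), was -0.02 without KO library 5. Dusp1 stood at 10.2, 12.1, 10.3, 9.58 and 9.92 FPKM in FL and at 10.8, 12.5, 10.6, 11.5 and 12.9 FPKM in KO. Every KO library lay above every FL library except FL library 2, which lay among them. Its difference was 0.14, with an interval of -0.02 to 0.30 (limma, adjusted p = 0.178). In GENCODE M21 Dusp1 overlaps Ergic1 on the other strand, which averaged 99.6 FPKM in FL against 107 in KO. The deposited entries of Dusp1, Junb, Nr4a1 and Npas4 are of an earlier version than those of GENCODE M21. Their spans and overlaps may therefore differ from those behind the FPKM.

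Ordered by level per length of transcript, FL islets had Junb and Jun at the top, then Dusp1 (10.4 ± 0.996 FPKM), Ier2 (6.78 ± 0.608), Egr1 (3.84 ± 0.677), Nr4a1 (2.69 ± 0.369), Fos (2.13 ± 0.500), Fosb (0.542 ± 0.196), Egr2 (0.329 ± 0.0230) and Npas4 (0.0873 ± 0.0277; SD, n = 5). Besides Junb and Jun, the neighbours Nr4a1 and Fos overlapped, and the others did not. In KO the order of Junb and Jun and that of Nr4a1 and Fos turned. There, Ier2 overlapped Egr1, Egr1 overlapped Fos, Fos overlapped Nr4a1 and Fosb overlapped Egr2.

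Within the KO group, 2 libraries stood at the ends for most members. KO library 5 was the highest of all 10 libraries for 8 of the 10 members and the highest KO library for 9. KO library 3 was the lowest KO library for 8. Summed FPKM of the 10 members was 58.8 to 70.4 in FL, 64.2 in KO library 3 and 99.9 in KO library 5. Among the 500 tested genes nearest to each in mean level, the spread of Junb was at percentile 93.4 in FL and 97.6 in KO, so it was wide in both groups. Egr1 was at percentile 71.8 in FL and 94.2 in KO, Ier2 at 52 and 92.6, Nr4a1 at 44.4 and 6.0, and Jun at 13.8 and 40.6. Fos was at 75.4 in FL and 75.6 in KO, and Dusp1 at 57.6 and 44.8.

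**Figure D3:**
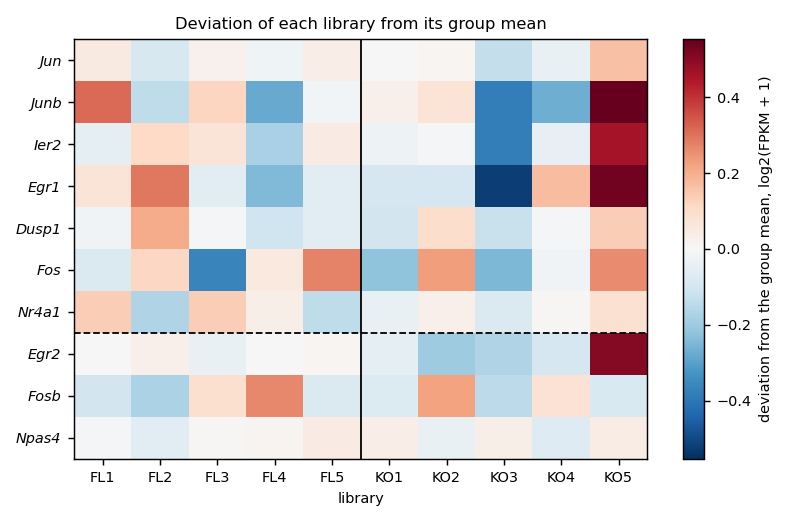
Deviation of each library from the mean of its own group in log2(FPKM + 1), for the 10 members in rows and the 10 libraries in columns (red above, blue below the group mean). The solid line parts FL from KO and the dashed line parts the 7 members past the filter from the 3 under it. KO library 5 is red for most members and KO library 3 is blue for most.

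After the group means were removed, log2 levels were correlated over the 10 libraries for the 21 pairs of the 7 members past the filter. The correlation was positive in 19 pairs, with a median Pearson r of 0.52 and a range of -0.26 to 0.91. The same share and median were not computed for pairs of other genes, so these values are not shown to be particular to the members. Jun and Junb gave r = 0.91 (exact permutation within groups, two-sided, p = 0.00181, adjusted 0.0379; Spearman rho = 0.88, p = 0.00354, adjusted 0.0744), and it was the 1 pair past an adjusted p of 0.05 by r, with none past it by rho. Without the 2 libraries farthest from the median of Jun, KO libraries 5 and 3, that r was 0.74. No pair passed the threshold when any 1 of FL libraries 1 and 3 or KO libraries 1, 3, 4 and 5 was left out. In the promoters shown above, the Jun window holds no TGACG and that of Junb holds 1.

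The next pair was Egr1 and Ier2, with r = 0.90 (exact permutation p = 0.0115, adjusted 0.0605; rho = 0.68, p = 0.0439, adjusted 0.218) and 0.56 without KO libraries 5 and 3. Dusp1 was correlated with both without passing the adjusted threshold, at r = 0.77 with Egr1 (exact permutation p = 0.0111, adjusted 0.0605; rho = 0.77, p = 0.0240, adjusted 0.168) and r = 0.71 with Ier2 (p = 0.00819, adjusted 0.0605; rho = 0.78, p = 0.0112, adjusted 0.117), and without those libraries at 0.69 and 0.63. Jun and Ier2 gave r = 0.78 (exact permutation p = 0.0558, adjusted 0.151; rho = 0.44, p = 0.229, adjusted 0.401), which turned to -0.11 without KO libraries 5 and 3. That relation rests on those 2 libraries. The same holds for Jun with Egr1, at 0.60 with them and -0.53 without them (exact permutation p = 0.137, adjusted 0.287; rho = 0.39, p = 0.306, adjusted 0.460). Across all 21 pairs, leaving out the 2 farthest libraries lowered the median r to 0.29, and without KO library 5 alone it was 0.28 with no pair past the threshold. Among Fosb, Egr2 and Npas4, Egr2 gave its highest r with Ier2 (r = 0.81, rho = 0.58, and 0.72 without KO libraries 5 and 2), while for Fosb and Npas4 the highest r was 0.41, for Fosb with Nr4a1, and the lowest was -0.51 for Npas4 with Dusp1 (rho = -0.45, and -0.39 without KO library 4 and FL library 2).

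Markers of exocrine cells were read beside the members. The summed FPKM of the 11 acinar markers was 4582 to 12286 in FL and 3111 to 22723 in KO, 22723 in KO library 5 and 3216 in KO library 3, and none of the 10 tested was called between the groups by limma, with 0 at an unadjusted p under 0.05. Egr1 followed their mean log2 level within the groups at r = 0.92 (exact permutation p = 0.000208, adjusted 0.0167 over 80 relations; rho = 0.96, p = 0.000208, adjusted 0.0167) and at 0.85 without KO libraries 5 and 3. It was the 1 relation of the 80 between a member and a list past the threshold. Ier2 gave r = 0.80 (exact permutation p = 0.0202, adjusted 0.188; rho = 0.59, p = 0.0941, adjusted 0.445) and 0.43 without those libraries. With the level of the 7 duct markers Egr1 gave r = 0.92 (exact permutation p = 0.00250, adjusted 0.10; rho = 0.87, p = 0.00451, adjusted 0.0903) and 0.76 without them. With the acinar level as a covariate, an alternative added after the data were seen, the difference of Egr1 was 0.23 (limma, adjusted p = 0.0589, in a range of 0.0589 to 0.988 over its alternatives). With the level of the β cell markers Egr1 gave r = -0.67 (exact permutation, adjusted p = 0.303; rho = -0.79, adjusted 0.249), and -0.75 without KO library 4 and FL library 1. Which cells held the Egr1 transcript was not tested.

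**Figure D4:**
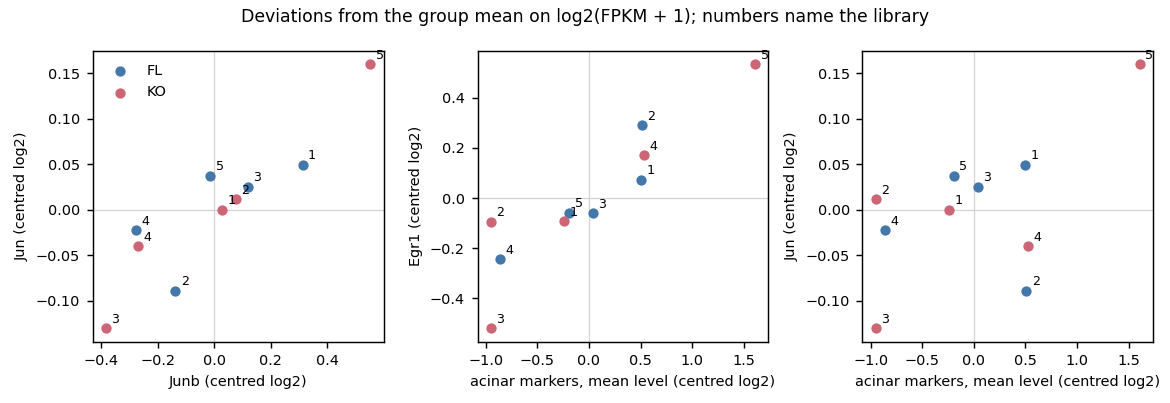
Deviations from the group mean on the log2(FPKM + 1) scale for the 5 FL (blue) and 5 KO (red) libraries, with the library number beside each point. Jun is plotted against Junb (left, r = 0.91), Egr1 against the mean level of the 11 acinar markers (middle, r = 0.92) and Jun against the same markers (right, r = 0.58). KO library 5 is at the top right of each panel, and without KO libraries 5 and 3 the right panel gives r = -0.22.

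For Jun, the acinar level gave r = 0.58 (exact permutation p = 0.161, adjusted 0.444; rho = 0.37, p = 0.369, adjusted 0.671), which turned to -0.22 without KO libraries 5 and 3, and the difference between the groups was 0.52 with it as a covariate (limma, adjusted p = 8.8e-05, in a range of 4.06e-05 to 0.00250 over its alternatives). Markers of stellate and fibroblast cells, leukocytes and endothelial cells differed between the groups in the direction of Jun. Other lists did not: all 10 tested acinar markers had a log2 difference below 0 (median -0.35, 0 called). Of 6 tested duct markers 1 was called higher and 1 lower, and of 8 α, δ and PP markers 0 and 2. All 6 tested stellate and fibroblast markers, 6 of 10 leukocyte markers and 4 of 9 endothelial markers were called higher in KO, beside 9.05% of all genes. The endothelial count was 2 with the replicate block and 6 after rescaling by median ratio or quantile normalization. The mean log2 levels of the stellate and leukocyte lists did not overlap between the groups, at 1.45 to 1.87 in FL against 2.003 to 2.36 in KO for the 8 stellate markers and 3.53 to 3.83 against 3.97 to 4.15 for the 11 leukocyte markers. Summed FPKM was 18.4 to 27.2 in FL against 35 to 44.3 in KO for the stellate list, 240.3 to 294 against 314 to 373 for the leukocyte list and 179 to 210.1 against 203 to 269 for the endothelial list, and no marker of these lists was at 0 in every library. Within the groups Jun gave r = 0.72 with the stellate level (exact permutation p = 0.0186, adjusted 0.188; rho = 0.88, p = 0.00208, adjusted 0.0833) and 0.84 without FL libraries 4 and 1. With the leukocyte level it gave r = 0.24 (exact permutation p = 0.467, adjusted 0.719; rho = 0.18, p = 0.633, adjusted 0.756) and 0.53 without FL libraries 4 and 5. With the endothelial level it gave r = 0.44 (exact permutation p = 0.256, adjusted 0.568; rho = 0.25, p = 0.525, adjusted 0.733), which turned to -0.57 without KO libraries 3 and 5. None of these 3 relations passed the adjusted threshold. The part of these cells in the difference of Jun was not tested. Junb gave r = 0.80 with the stellate level (exact permutation p = 0.00611, adjusted 0.163, rho = 0.85, adjusted 0.0903). Without FL libraries 4 and 1 that r was 0.76. With the α, δ and PP level Jun gave r = 0.69 (exact permutation, adjusted p = 0.273), and 0.28 without KO library 5 and FL library 3. With the duct level Jun gave r = 0.64 (exact permutation, adjusted p = 0.303), and -0.17 without KO libraries 5 and 3. Of the 7 tested β cell markers, 6 were called lower in KO (median log2 difference -0.60). With the β level Jun gave r = -0.41 (exact permutation, adjusted p = 0.661), and -0.62 without KO library 4 and FL library 1.

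Other genes with the pattern of the members were sought among all tested genes, by the correlation of their centred levels with the mean standardized level of the 7 members over the 10 libraries. Among the most alike were Traf4 (r = 0.99), Nhp2, Sox18, Erf, Nfyc, Id3 and S100a16 (r = 0.93), and none of them is an immediate early gene by the lists used here. Traf4, a TNF receptor-associated factor, stood at 7.85 ± 0.522 FPKM in FL against 7.60 ± 1.43 in KO (SD, n = 5; limma, adjusted p = 0.735), with 9.74 FPKM in KO library 5 and 5.93 FPKM in KO library 3. Its r was 0.97 without those libraries, and that of Sox18, a factor of endothelial cells, fell from 0.95 to 0.44. Many genes followed that mean level more closely than some members did. Genes with a higher r than the member numbered 6 for Ier2, 31 for Junb, 39 for Egr1 and 50 for Jun. They numbered 430 for Dusp1, 1012 for Fos and 1662 for Nr4a1. The members are part of that mean level, so each was set against the mean of the other 6 instead. On that measure Ier2 gave the highest r (0.903) and Nr4a1 the lowest (0.24).

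None of the 8 tested AP-1, MAF and ATF3 relatives passed the test, beside 25.5% of all genes called, with a median log2 difference of 0.07. Before adjustment, 2 of the 8 had a limma p under 0.05, beside 37.7% of all genes. Jund, the most abundant AP-1 gene listed, was at 86.9 ± 4.33 FPKM in FL against 88.7 ± 13.7 in KO, and Fosl2 at 4.48 ± 0.547 and 4.58 ± 0.409 FPKM (SD, n = 5). Atf3, a stress-induced partner of JUN, came nearest at 9.18 ± 1.44 FPKM in FL against 11.8 ± 1.66 in KO (log2 difference 0.33; limma, adjusted p = 0.0568). After rescaling by median ratio, 1 of these 8 was called higher. Of the EGR and NR4A relatives, Egr3, Nr4a2 and Nr4a3 averaged under 1 FPKM, and Egr4 had 0.0218 FPKM in FL library 1 and was listed at 0 in the other 9. The 2 co-repressors of EGR proteins were the tested genes of that list, and both were called, in opposite directions. Nab2 fell from 5.45 ± 0.409 to 3.76 ± 0.362 FPKM (log2 difference -0.44; limma, adjusted p = 0.00114) with no overlap, and Nab1 rose from 30.8 ± 4.22 to 39.7 ± 2.88 FPKM (0.36; adjusted p = 0.0156).

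Of 37 other tested immediate early genes, 8 were called higher and 4 lower, with a median log2 difference of 0.04, beside 9.05% and 16.5% of all genes. With the replicate number as a block the counts were 4 and 1, and after rescaling by median ratio 8 and 2. Gem, a small GTPase that restrains calcium channels, rose from 3.59 ± 0.286 to 6.97 ± 0.645 FPKM (0.79; limma, adjusted p = 2.15e-05). Rgs2, a brake on G protein signalling, rose from 19.4 ± 1.504 to 29.4 ± 2.11 FPKM (0.57; adjusted p = 0.000112), and Ppp1r15a (GADD34), which restores translation after stress, from 37.7 ± 3.07 to 51.2 ± 1.36 FPKM (0.43; adjusted p = 0.000289). For these 3, as for Jun, no KO library overlapped FL. Klf6 rose by 0.29 (adjusted p = 0.0233) and Ctgf, a matrix-associated growth factor gene, by 0.45 (adjusted p = 0.0304), and both lost the call without KO library 5 among others, with adjusted p up to 0.0571 and 0.0747. Plk3, a polo-like kinase, fell from 55.5 ± 7.16 to 40.5 ± 6.02 FPKM (-0.45; adjusted p = 0.0147) and the clock gene Per1 from 13.4 ± 0.853 to 10.2 ± 1.90 FPKM (-0.38; adjusted p = 0.0261). Plk3 lost the call with the replicate number as a block (adjusted p = 0.0531) and Per1 in 5 refits (adjusted p up to 0.0609). Ier3, Ier5, Btg2, Zfp36, Klf4, Sik1 and Crem did not pass, with log2 differences from -0.18 to 0.26, and Arc averaged under 1 FPKM.

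Among the phosphatases and inhibitors that, like Dusp1, close MAP kinase signals, 4 of 12 were called higher and 3 lower, with a median of 0.15, beside 9.05% and 16.5% of all genes. Dusp14 rose from 8.70 ± 1.21 to 15.6 ± 1.079 FPKM (0.78; limma, adjusted p = 8.64e-05) and Dusp16 from 12.5 ± 0.987 to 15.8 ± 1.16 FPKM (0.32; adjusted p = 0.00526), both without overlap. Dusp6, the cytoplasmic ERK phosphatase, rose by 0.34 (adjusted p = 0.0188, and 0.0757 with the replicate block, which lost the call) and Spred1, an inhibitor of RAS signalling, by 0.32 (adjusted p = 0.0119). Dusp4 (-0.42; adjusted p = 0.0396) and Dusp10 (-0.20; adjusted p = 0.0251) were lower, and lost the call in 14 and 9 refits (adjusted p up to 0.0965 and 0.120). After rescaling by median ratio no gene of this list was called lower, with 5 called higher, and with the replicate block the counts were 3 higher and 0 lower.

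Genes that carry signals to the immediate early genes gave 2 calls higher and 13 lower among 45 tested, with a median of -0.11 beside -0.06 for all genes. Over the whole table calls were also more often lower, at 16.5% against 9.05% higher. After rescaling by median ratio the list gave 3 higher and 11 lower, where the whole table gave 1547 and 1685. With quantile normalization the list gave 3 and 12, and with the replicate block 1 and 12. Of CREB and its helpers, Creb1 fell from 19.8 ± 0.335 to 16.7 ± 0.864 FPKM (-0.24; limma, adjusted p = 0.00278) and the coactivator gene Crtc3 from 21.6 ± 2.34 to 14.9 ± 0.329 FPKM (-0.50; adjusted p = 0.000467). The ERK kinase gene Map2k1 fell from 60.8 ± 1.72 to 47.2 ± 1.21 FPKM (-0.36; adjusted p = 8.49e-05) and Nfatc2, a target of calcineurin, from 9.58 ± 0.720 to 6.62 ± 0.557 FPKM (-0.47; adjusted p = 0.000563). In all 4, every KO library lay below every FL library. Prkacb, a catalytic subunit of protein kinase A, fell by 0.34 on the log2 scale (adjusted p = 0.0172). Camk1d, a calcium-dependent kinase, fell by 0.33 (adjusted p = 0.0438), a call that 15 of 23 refits lost (adjusted p up to 0.1001). Rps6ka5, which encodes the histone and CREB kinase MSK1, rose by 0.42 (adjusted p = 0.0145). Srf was at 13.7 ± 1.63 FPKM in FL against 12.9 ± 0.756 in KO (adjusted p = 0.447).

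**Figure D5:**
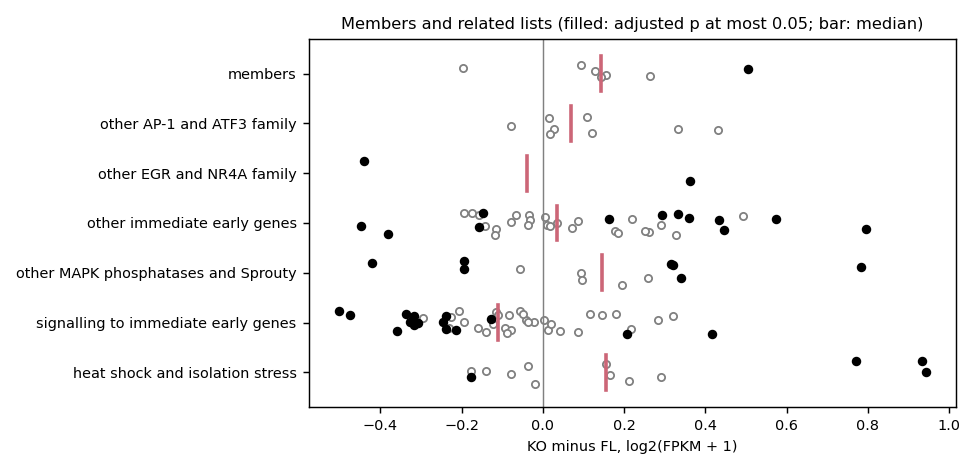
Difference between KO and FL in log2(FPKM + 1) for the members and 6 related gene lists, with 1 point per tested gene. Filled points have an adjusted p of at most 0.05 (limma), and the red bar is the median of the list. Jun is the filled point among the members at 0.50, the signalling list has most filled points below 0, and 3 heat shock genes lie between 0.77 and 0.94.

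Heat shock genes, which isolation and culture can raise, were read beside the members for that reason. Of 13 tested, 3 were called higher and 1 lower, beside 9.05% and 16.5% of all genes. The counts were 6 and 0 after rescaling by median ratio and 5 and 0 with quantile normalization. Hspa1a was at 2.82 ± 0.633 FPKM in FL against 6.35 ± 1.22 in KO (0.94; limma, adjusted p = 0.000822) and its near-identical neighbour Hspa1b at 2.503 ± 0.419 and 5.74 ± 1.22 FPKM (0.93; adjusted p = 0.000446), so reads may be shared between them. Hsph1, a chaperone of the HSP110 family, rose from 94.2 ± 5.14 to 163 ± 26.1 FPKM (0.77; adjusted p = 0.000205), and Dnajb1 fell by 0.18 (adjusted p = 0.0342), a call that 13 of 24 refits lost (adjusted p up to 0.104). The mean log2 level of the 13 was 5.89 to 6.05 in FL and 6.12 to 6.33 in KO, without overlap. Within the groups Jun gave r = 0.09 with that level (exact permutation p = 0.828, adjusted 0.883; rho = 0.10, p = 0.791, adjusted 0.835) and 0.21 without KO library 2 and FL library 5. Among the members the lowest r with it was that of Npas4, at -0.68 (exact permutation p = 0.0463, adjusted 0.247; rho = -0.77, p = 0.0178, adjusted 0.238) and -0.59 without those libraries. The highest was that of Dusp1, at 0.64 (exact permutation p = 0.0649, adjusted 0.273; rho = 0.64, p = 0.070, adjusted 0.373) and 0.62 without them, and no member passed the adjusted threshold.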

How the data were processed

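Islet poly(A) libraries (TruSeq stranded, single-end 75-base reads) of 5 FL and 5 KO samples were analysed. The authors deposited 1 table of FPKM per gene (fragments scaled to transcript length and to all mapped reads), which the submitters' processing notes tie to STAR 2.5.2a, Cuffnorm 2.2.1 and mm10 (GRCm38). The strand setting of the counting is not given in the sources used here. No column lacked a sample, and no pair of libraries held identical values. FPKM carry no counts. For genes with 1 transcript of at least 1500 bases in GENCODE M21, low values were multiples of 1 read (98.3% to 98.9% of values within 0.05 of a whole number), which gave the depth. Reads per member are approximate where several transcripts exist. Counting errors cover counting only.

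log2(FPKM + 1) was fitted over the 13065 genes whose FL or KO mean reached 1 FPKM, with limma 3.58.1 (lmFit, eBayes with trend; R 4.3.3), with no covariate, and p-values were adjusted over all of them by Benjamini-Hochberg. Calls needed an adjusted p of 0.05 or less. Tested on simulated data with 100 genes changed at each size, the fit recovered 76 at a log2 change of 0.5 and 98 at 1, and called 10 of 12865 unchanged genes. The changed genes were drawn from genes with FL levels above those of Fos and Nr4a1, so the recovery does not cover levels as low as theirs. Genes were simulated independently, so movement shared by the genes of a library was not part of it, and far fewer genes were changed than the data called. Exact permutation tests of mean FPKM used all splits of 5 against 5. Correlations used levels centred by group, with exact permutation within groups.

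The members and lists were chosen with earlier results of these data known. Genes named outside the members were Fitm2, up to 6 called genes of largest change per related list, 20 listed genes, and the 8 most alike, of which 1 is not reported here; Sst and Ppy were added after their values were seen. Alternatives were 2 pseudocounts (0.1 and 0.01), 2 filters (none and 5 FPKM), 4 rescalings, eBayes without trend or robust, sample weights, a replicate block, each library left out, a 1.5-fold minimum, and 2 chosen after seeing the data: no filter with pseudocount 0.01, and the acinar level as a covariate. Promoter letters were matched on both strands in RefSeq windows.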

Additional observations from a re-analysis of the deposited data

Results flagged for a closer look

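In groups of 5, a single library stood apart from the other 4 by Dixon's test for 4 of 121 gene and group combinations checked (the members and named genes), where chance alone gives about 6.05. Among the members, Egr2 was at 0.951 FPKM in KO library 5 beside 0.196 to 0.324 FPKM in the other KO libraries, and Dusp1 was at 12.1 FPKM in FL library 2 beside 9.58 to 10.3 FPKM in the other FL libraries. Among the relatives, Nr4a3, an orphan receptor of the family of Nr4a1, was at 0.262 FPKM in KO library 5 beside 0.109 to 0.132 FPKM. Egr4 was at 0.0218 FPKM in FL library 1 and listed at 0 in the other 4. Of these 4 values, 2 belong to KO library 5, the library that was also highest for most members and for the acinar markers.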

How the results depend on the processing

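Jun was called higher in KO in all 24 refits, with a log2 difference of 0.46 to 0.56, and a minimum change of 1.5-fold removed it (0.50, leaving 0 members) and left 639 of all called genes. Without KO library 5 the sign turned for Egr1 (-0.00395), Ier2 (-0.0205) and Egr2 (-0.0814), whose differences over each library left out reached 0.259, 0.190 and 0.0950. Other members kept their sign and their side of the threshold. Leaving out each library in turn, the count of pairs of members past an adjusted p of 0.05 ran from 0 to 3, and it was 4 with rescaling by median ratio and 4 with quantile normalization. Replicate numbers did not pair the libraries: same-numbered libraries correlated at -0.10 to 0.00, and none of the 5 FL libraries went best with its own number. With the number as a replicate block, the difference of Jun was 0.50 (limma, adjusted p = 0.00250), 7 pairs passed instead of 1, 26 genes of the related lists were called instead of 40, and 2368 genes in all. Of those 40, 24 were called in every refit. Depth limits Npas4, Egr2 and Fosb most, with 5 to 157 reads per library, and FPKM without counts leave no count test for genes with several transcripts. FL and KO differ in the Cre transgene as well, which cannot be told apart from the loss of Fitm2.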
